A study of Mus musculus with 171 samples.

Results

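Guca2a encodes the precursor of guanylin, a peptide hormone that the intestinal epithelium releases into the gut lumen. The Guca2a transcript was measured here by 1 spotted probe of 8734, the only probe that the platform annotation assigns to the gene. It is 1 of 5755 genes that the annotation names. It was followed over 26 gut sources (49 arrays) and set against 62 other sources (122 arrays) of a mouse expression collection of 88 sources and 171 arrays. A source is one named tissue or tumour.

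Every array carried RNA of a mouse tissue and, in the other channel, a universal mouse reference RNA. The normal adult gut was sampled as duodenum, proximal jejunum, a second proximal jejunum numbered 46 whose source name ends in WT, ileum, cecum, proximal colon and distal colon. Developing small intestine was taken on embryonic day 16.5 (E16.5) and on postnatal days 1 (P1) and 14 (P14). The name of the last source reads P145, whereas its description says day 14. Operated ileum came from mice after bowel resection or a sham operation. The tumours were 5 from the duodenum (Duo1, Duo43, Duo48, Duo59 and Duo72), 5 from the jejunum (Jej1, Jej2, Jej3, Jej48 and Jej59) and 4 from the colon (Col1, Col2, Col43 and Col72). For the gut sources the labels give no strain, sex, adult age or tumour genotype, and they do not say whether tumours were dissected free of the wall or whether animals were pooled. The 62 other sources were adult organs and cells, fetal and postnatal tissue, hair in anagen and catagen, and cycling and pregnant uterus (UterPreg45). Mammary gland was lactating or involuting. Lung was taken at E13.5, E16.5, E18.5, P1, P5, P12 and P24, kidney at E18.5 and P2, and liver at E14 and P14. Heart was taken at E14.5, brain at E18.5 and P2, skin at E16 and P2 and bladder at P1. The titles of the E18.5 brain arrays contain wt. Treated or altered tissue was also included. This was FVB/N kidney injured with folic acid, and liver 6 and 24 h into regeneration and 6 h after sham. Further ones were synovium in acute and chronic arthritis, lymph node stimulated with Freund's adjuvant and activated T cells. A transgenic hyperdynamic heart (HDmekt) came with its control (CtrlMek). The spleen is labelled C57. Sources had 2 arrays each, except Duo59, Duo72, Jej3, pancreatic islets and activated T cells with 1. The labels do not say that both arrays of a source held separate animals, so the spread between them may be technical.

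Guanylin binds guanylate cyclase C (Gucy2c) on the luminal face of enterocytes and colonocytes, which then make cyclic GMP. Cyclic GMP acts through a membrane-bound protein kinase (Prkg2) to open the chloride channel Cftr and to inhibit the sodium-hydrogen exchanger Slc9a3, so that salt and water move into the lumen. The sister peptide uroguanylin, from the neighbouring gene Guca2b, acts on the same receptor. Guanylin is best known as a product of the ileum and colon, and its loss from human colorectal tumours is well described.

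Guca2a lies on chromosome 4, with its start at the right-hand end of the upstream stretch printed here, and Guca2b is the next gene in the RefSeq table on the opposite strand. The 250 bases before the Guca2a start are chr4:119637482-119637731 on the plus strand (RefSeq, GRCm38.p6). They are shown because they hold letter matches for factors active in gut epithelium. Capitals mark the matches.

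Guca2a upstream: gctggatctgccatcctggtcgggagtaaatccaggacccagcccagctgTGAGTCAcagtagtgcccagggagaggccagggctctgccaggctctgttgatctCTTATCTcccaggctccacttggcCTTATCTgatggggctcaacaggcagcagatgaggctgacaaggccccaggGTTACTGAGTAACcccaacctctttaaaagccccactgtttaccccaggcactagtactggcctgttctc

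From left to right, the capitals are 1 AP-1 motif (TGAGTCA), 2 GATA factor motifs (AGATAAG, read on the minus strand as CTTATCT) and 1 HNF1 palindrome, matched with any letters in its middle. Both strands were searched and no matches overlapped. In windows of equal length before the starts of 32851 mouse genes, these motifs were present in 4.46%, 2.74% and 0.307%. The HNF1 pattern was chosen after this sequence had been read. The CDX motif TTTATG, present in 10.8% of windows, and the TATA box TATAAA, present in 12.4%, have no match in these letters. The run TTTAAA, present in 12.1% of windows, occurs at positions -48 to -43 and is left in small letters. A match is a description of the letters and not a measured binding site.

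Each array value is a log ratio between the tissue and the reference, and every probe was centred to a median of about 0 across the arrays. A log2 ratio of 0 is thus the usual level of Guca2a in the collection and not its absence, and ratios of different probes were not compared as levels. Base and direction are not stated. They were read as log2 and as tissue over reference, because the marker genes of 7 of 7 checked organs, 12 genes in all, lay above the median of the other sources in their own organ, though for heart ventricle only at 0.01 against -0.08. The direction rests on these markers alone and is not settled by the labels. Their means were 6.43 in liver, 6.41 in lung and 5.47 in hippocampus, but only 3 of the 7 organs ranked first for their own markers. Of 14535 pairs of arrays, 592 correlated below -0.3, which in probe-centred values does not by itself show a turned sign. With the sign turned, every "higher" below reads "lower" with the same size and p. The widest span of any probe was 13.5, and that of Guca2a was 9.15. Arrays held values for 5137 to 8658 probes, their medians ran from -0.92 to 0.24, and their number limits the precision.

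Guca2a was highest in the large intestine. The cecum arrays read 6.45 and 6.01, a mean of 6.23 ± 0.31 (SD, n = 2). The distal colon arrays read 5.68 and 5.98 (5.83 ± 0.21, SD, n = 2), and the proximal colon arrays 6.09 and 5.15 (5.62 ± 0.67, SD, n = 2). The 6 arrays of the 3 segments fall in one band, in which the proximal colon spans most of the range. On each of them Guca2a ranked between 3 and 6 among all probes, counted from the highest log2 ratio down.

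Along the small intestine the values climbed from the duodenum to the ileum. The duodenum arrays read 0.57 and 0.84 (0.70 ± 0.19, SD, n = 2), the lowest mean of any gut source. Proximal jejunum gave 2.13 and 1.75 (1.94 ± 0.27, SD, n = 2), and proximal jejunum 46 gave 2.69 and 2.22 (2.46 ± 0.33, SD, n = 2). The 2 jejunal sources do not overlap each other, and both lie wholly above the duodenum. The ileum arrays read 4.48 and 4.97 (4.73 ± 0.34, SD, n = 2), above all 6 arrays from further up and below all 6 arrays of the large intestine.

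**Figure D1:**
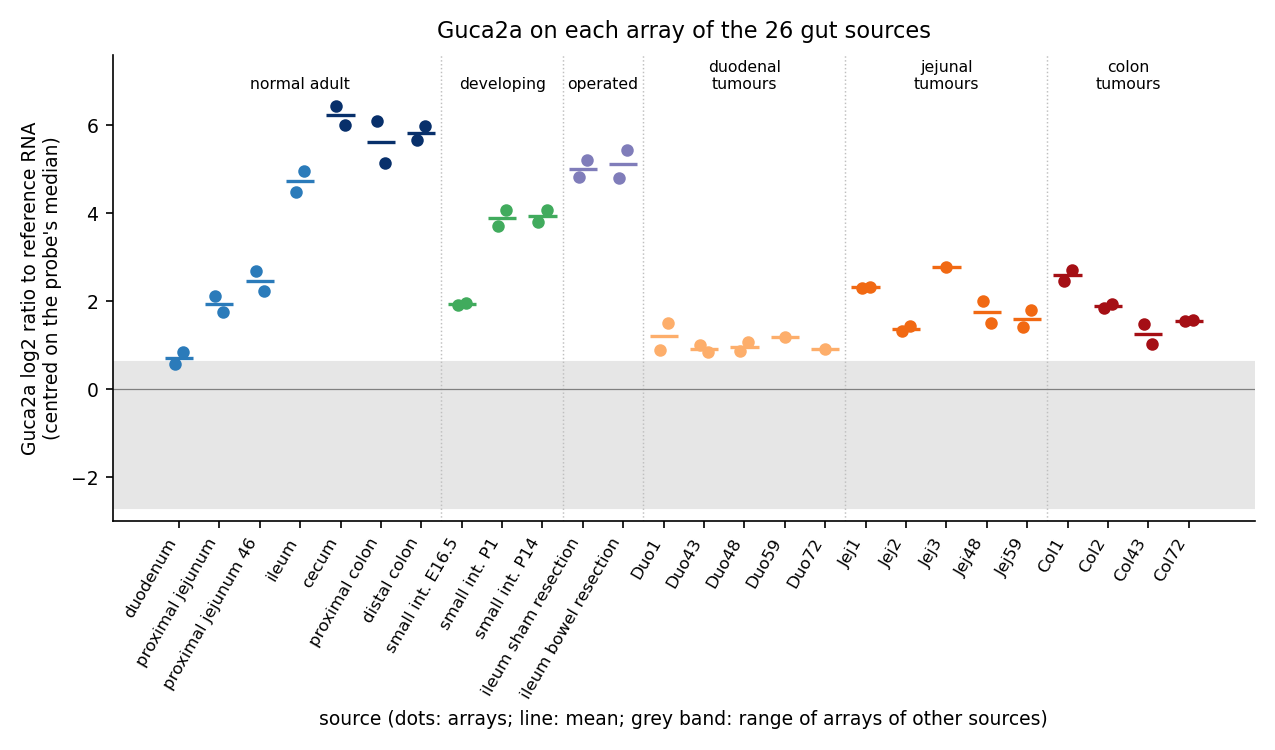
Guca2a log2 ratio (vertical axis) on each array of the 26 gut sources (horizontal axis), with dots for arrays, a line for the mean of a source and a grey band for the range of the 122 arrays of other sources. Normal values climb from 0.70 in the duodenum to 6.23 in the cecum, whereas tumours of all 3 segments lie between 0.92 and 2.78.

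Differences are given as limma estimates ± SE on the log2 scale, with p adjusted by Benjamini-Hochberg over all tested probes. Single sources were compared in a fit of all arrays. Their SE and p rest on the spread between arrays of a source, which may be technical. They may thus not hold variation between animals. Ileum exceeded duodenum by 4.02 ± 0.38 (adjusted p = 1.5e-14), a comparison in which 6.26% of tested probes were called at an adjusted p under 0.05 in either direction. It exceeded proximal jejunum by 2.79 ± 0.38 (adjusted p = 5.1e-08, with 4.09% of probes called). Proximal jejunum lay 1.23 ± 0.38 above duodenum, which did not pass (adjusted p = 0.16, with 0.764% of probes called), although the arrays do not overlap.

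Within the large intestine no difference passed. Proximal colon minus cecum was -0.61 ± 0.38 (adjusted p = 0.49), distal colon minus cecum was -0.41 ± 0.38 (adjusted p = 0.81), and distal minus proximal colon was 0.21 ± 0.38 (adjusted p = 0.86). Leaving out single arrays moved the first between -1.08 and -0.14, the second between -0.62 and -0.19 and the last between -0.26 and 0.68, and quantile normalization brought all 3 to about 0. In these comparisons 1.3%, 2.65% and 0.972% of probes were called. The median of all probes was itself shifted by -0.16 in the first and by 0.15 in the last. With array medians centred these shifts shrank to -0.02 and 0.04.

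For the large against the small intestine, each source counted once, with the form of the array title as a covariate. Large intestine (5.89 ± 0.31, SD, n = 3 sources) exceeded small intestine (2.46 ± 1.68, SD, n = 4 sources) by 3.38 ± 0.37 (adjusted p = 7.3e-06), and 9.64% of probes were called. All 3 large intestinal source means lay above all 4 small intestinal ones. An exact two-sided permutation test over these means gave p = 0.0571, or 0.0952 after adjustment over 5 such tests, where 0.0286 is the smallest p that 3 against 4 sources allow. Leaving out single sources moved the difference between 2.73 (without the duodenum) and 4.12 (without the ileum), and it stayed called each time.

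Of 16 genes listed for guanylin signalling and its targets, the array measured Guca2a and 3 others with enough values for testing. Slc9a3r1 and Pdzk1 encode PDZ scaffold proteins that hold Slc9a3 and other transporters at the brush border, and Slc12a2 is the basolateral sodium, potassium and chloride cotransporter that supplies chloride for secretion. The receptor, the kinase, Cftr and Slc9a3 were not measured here, nor was uroguanylin. Within the large intestine 1 of the 3 was called, Slc9a3r1, which was lower in proximal colon (-1.27 ± 0.23, adjusted p = 0.00022) and in distal colon (-1.13 ± 0.23, adjusted p = 0.0006) than in cecum. Neither call held after quantile normalization (-0.61, adjusted p = 0.21, and -0.71, adjusted p = 0.062), and the first did not pass without array 2 of the proximal colon (-1.09, adjusted p = 0.057). Of all probes 1.3% were called for proximal colon and 2.65% for distal colon against cecum. Between large and small intestine 0 of the 3 rose and 1 fell. The median difference was -1.04 against -0.01 over all probes, of which 9.64% were called. Pdzk1 was lower in large intestine (-1.39 ± 0.20, adjusted p = 0.00013), opposite in direction to Guca2a. Slc9a3r1 differed by -1.04 ± 0.44 (adjusted p = 0.13) and Slc12a2 by 0.13 ± 0.34 (adjusted p = 0.85).

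From duodenum to ileum, 2 of the 3 were called higher, Slc9a3r1 by 0.75 ± 0.23 (adjusted p = 0.034) and Pdzk1 by 0.56 ± 0.17 (adjusted p = 0.026), whereas Slc12a2 differed by -0.09 ± 0.22 (adjusted p = 0.95). In that comparison 6.26% of all probes were called. The smaller changes of Slc9a3r1 and Pdzk1 depended on single arrays. Pdzk1 lost its call without array 1 of the duodenum (0.41, adjusted p = 0.26) or array 2 of the ileum (0.26, adjusted p = 0.68). Slc9a3r1 lost its call without any 1 of the 4 arrays, with estimates from 0.59 to 0.92 and adjusted p from 0.056 to 0.25.

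Other genes of the mucosa differed along the same axis. Between large and small intestine 9.64% of all probes were called, 377 higher and 442 lower. All 5 measured colonocyte genes were higher in large than in small intestine (median difference 3.14), among them the carbonic anhydrases Car2 (3.92 ± 0.42, adjusted p = 6.6e-06), Car1 (3.20 ± 0.45, adjusted p = 0.00013) and Car4 (3.14 ± 0.48, adjusted p = 0.00027). All 10 measured enterocyte genes were lower (median -3.46), led by Mttp, which loads lipid onto chylomicrons (-5.59 ± 0.36, adjusted p = 5.0e-09), and the drug-metabolising enzyme Cyp3a11 (-5.39 ± 0.55, adjusted p = 2.7e-06). Of 6 intestinal transcription factors 0 rose and 1 fell, namely Creb3l3 (-3.27 ± 0.38, adjusted p = 1.5e-05). Cdx1 differed by 0.87 ± 0.28 (adjusted p = 0.051), which passed with array medians centred (0.86, adjusted p = 0.043), and Cdx2 by 0.57 ± 0.31 (adjusted p = 0.24). None of 6 goblet cell genes passed in limma.

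Of the 5 colonocyte genes, 3 were called higher in ileum than in duodenum and 1 lower, beside 6.26% of all probes called. Their median difference was 1.05 against -0.01 over all probes. The 1 lower was Car2, which fell by 4.26 from duodenum to ileum (adjusted p = 6.5e-22), where Guca2a rose. The antimicrobial genes Reg3b (4.99 ± 0.42, adjusted p = 5.0e-17) and Reg3g (4.22 ± 0.38, adjusted p = 1.2e-15) and the Paneth and goblet cell ribonuclease Ang4 (3.19 ± 0.32, adjusted p = 2.1e-13) rose with Guca2a over that stretch. Cdx2 rose by 1.21 ± 0.30 (adjusted p = 0.0045), but not past the threshold without array 1 of the duodenum (1.04, adjusted p = 0.089) or array 2 of the ileum (0.61, adjusted p = 0.49).

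Smooth muscle genes also differed between these sources. Their mean log2 ratio over 3 measured genes (Cnn1, Flna and Smtn) was 1.18 to 1.78 in the large intestinal sources and -0.05 to 1.00 in normal small intestine. Of the 3, 2 were higher in large intestine (beside 9.64% of all probes called), Flna by 0.95 and Cnn1, calponin of smooth muscle. Cnn1 was higher in large intestine (1.88 ± 0.29, adjusted p = 0.00026) and in ileum than duodenum (1.49 ± 0.33, adjusted p = 0.00098). The mean of 4 epithelial genes was 2.15 to 2.73 in large and 1.11 to 2.86 in small intestine. The part of tissue composition in the Guca2a differences was not tested. In bulk tissue, fewer guanylin-making cells and less transcript per cell cannot be told apart.

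In the developing small intestine Guca2a stepped up around birth. At E16.5 the arrays read 1.91 and 1.97 (1.94 ± 0.04, SD, n = 2), at P1 3.71 and 4.08 (3.89 ± 0.26, SD, n = 2), and at P14 3.81 and 4.06 (3.94 ± 0.18, SD, n = 2). Both newborn arrays lie above both fetal ones, and P1 and P14 overlap. P1 exceeded E16.5 by 1.95 ± 0.38 (adjusted p = 4.7e-05), or by 1.24 after quantile normalization (adjusted p = 0.0071), in a comparison in which 26.8% of probes were called, 1459 higher and 859 lower. Centring the array medians turned that split to 1042 higher and 1319 lower. P14 minus P1 was 0.04 ± 0.38 (adjusted p = 1.0, with 2.25% of probes called), and its sign turned when single arrays were left out.

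The mean of adult duodenum, proximal jejunum and ileum was lower than P14 small intestine by -1.48 ± 0.31 (adjusted p = 0.00017, with 18.7% of probes called). The adult segments straddle the P14 value, with duodenum and jejunum below and ileum above it, and the labels do not say which stretch the young intestine covered. Among the 3 signalling genes, 1 rose from E16.5 to P1, Pdzk1 (1.44 ± 0.17, adjusted p = 6.5e-11). Their median was 0.35 against 0.12 over all probes, of which 26.8% were called. Slc9a3r1 differed by 0.15 ± 0.23 (adjusted p = 0.66) and Slc12a2 by 0.35 ± 0.22 (adjusted p = 0.23). From P14 to the adult mean, Slc9a3r1 was called higher (0.66 ± 0.19, adjusted p = 0.0073), a call lost without P14 array 1 (0.60, adjusted p = 0.089) or array 2 (0.73, adjusted p = 0.056) and after quantile normalization (0.23, adjusted p = 0.44).

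Of the enterocyte genes 6 of 10 also rose around birth and 0 fell, beside 26.8% of all probes called in either direction. The apolipoprotein Apoc3 rose by 2.93 ± 0.41 (adjusted p = 1.7e-08) and the brush border alkaline phosphatase Alpi by 2.55 ± 0.46 (adjusted p = 8.5e-06), or by 1.43 after quantile normalization. After centring each array on its median, 5 of the 10 were called, and after quantile normalization 3, a share near that of all probes. From P14 to the adult mean, Reg3b rose by 4.43 ± 0.34 (adjusted p = 2.4e-19) and Cyp3a11 by 4.38 ± 0.50 (adjusted p = 8.7e-12), while Guca2a was lower.

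Surgery was not accompanied by a called difference in Guca2a. The question here is whether removal of other small bowel alters the remaining ileum. Ileum after bowel resection read 4.79 and 5.45 (5.12 ± 0.46, SD, n = 2), and sham-operated ileum 4.82 and 5.21 (5.02 ± 0.28, SD, n = 2). The sham arrays lie inside the range of the resected ones. Resection minus sham was 0.10 ± 0.38 (adjusted p = 1.0), in a comparison with 0.162% of probes called, and it changed sign when single arrays were left out. Sham minus unoperated ileum was 0.29 ± 0.38 (adjusted p = 0.81, with 2.93% of probes called) and turned to -0.24 after quantile normalization.

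Over all tumour arrays Guca2a ran from 0.84 to 2.78, below every array of the ileum and large intestine. The colon tumours read 2.46 and 2.72 (Col1), 1.85 and 1.94 (Col2), 1.47 and 1.02 (Col43) and 1.54 and 1.57 (Col72). All 8 of these arrays lie below every one of the 6 normal large intestinal arrays, whose lowest value was 5.15. Over sources the colon tumours averaged 1.82 ± 0.58 (SD, n = 4) and the normal large intestine 5.89 ± 0.31 (SD, n = 3).

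Guca2a was lower in colon tumours than in large intestine, by -3.96 ± 0.38 (adjusted p = 4.4e-06), with 5.26% of probes called. The exact two-sided permutation p over sources was 0.0286, the smallest that 4 against 3 allows, or 0.0714 after adjustment over 5 tests. Without any 1 source the difference ran from -4.26 to -3.79 and stayed called. Col43 and Col72 come from arrays with titles of another form, marked by a # sign and naming a comparison partner that the labels do not explain. No normal large intestine source shares that form. Without that form the difference was -3.65 ± 0.46 (adjusted p = 0.0098).

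The duodenal tumours read 0.89 and 1.51 (Duo1), 1.00 and 0.84 (Duo43), 0.87 and 1.06 (Duo48), 1.19 (Duo59) and 0.92 (Duo72). All 8 arrays lie above both arrays of the normal duodenum, the lowest of them by less than the rounding shown, and the mean over sources was 0.33 higher. The jejunal tumours read 2.29 and 2.33 (Jej1), 1.32 and 1.44 (Jej2), 2.78 (Jej3), 2.01 and 1.49 (Jej48) and 1.40 and 1.80 (Jej59). Of these 9 arrays, 4 lie within the range of the normal proximal jejunum arrays, and the mean over sources was -0.23 relative to them. Both of these values stand without a test.

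Small intestine tumours together (1.50 ± 0.63, SD, n = 10) differed from normal duodenum and jejunum (1.70 ± 0.90, SD, n = 3) by -0.14 ± 0.32 (adjusted p = 0.87, exact two-sided permutation p = 0.668), with 3.67% of probes called. The sign of this small difference depended on which normal source stood for the upper intestine. It was 0.50 without proximal jejunum 46 and -0.66 without the duodenum, and among sources with the # form alone, where proximal jejunum 46 is the only normal source, it was -1.12 ± 0.19 (adjusted p = 0.065).

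The tumour difference itself differed between the segments. Large intestinal minus small intestinal tumour difference was -3.82 ± 0.48 (adjusted p = 0.00049), and 0.789% of probes were called for this term. Leaving out any 1 of the 20 sources kept it between -4.30 and -3.22, and called. Without the # form it was -4.01 ± 0.65 and no longer passed (adjusted p = 0.15).

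**Figure D2:**
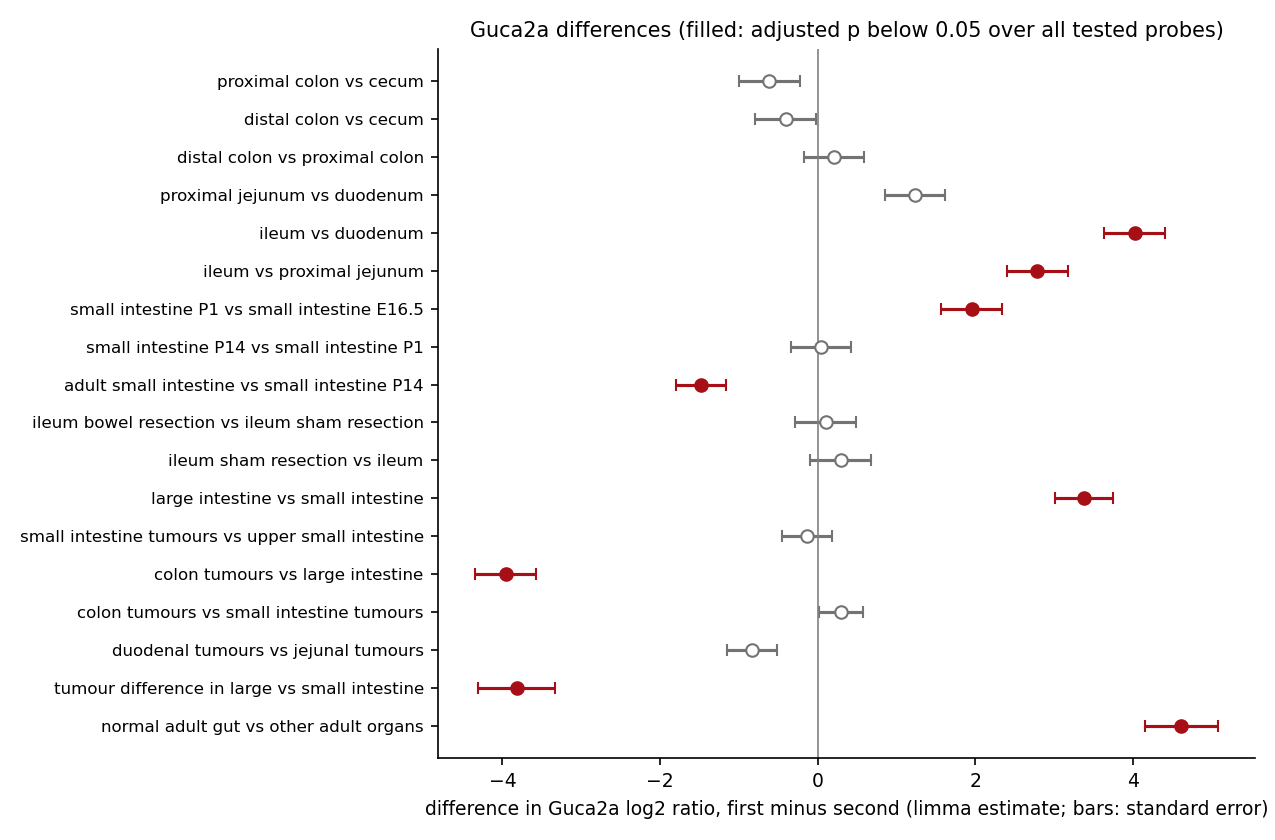
Estimated Guca2a differences (horizontal axis, log2 ratio, first named minus second) for 18 comparisons (vertical axis), with bars for the standard error and filled points for an adjusted p under 0.05. The filled points on the negative side are adult against P14 small intestine (-1.48), colon tumours against large intestine (-3.96) and the difference between the tumour effects of the segments (-3.82).

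Tumours of colon and small intestine were not told apart by Guca2a. Their difference was 0.30 ± 0.28 (adjusted p = 0.72, exact two-sided permutation p = 0.403), with 2.43% of probes called. It ran from 0.07 (without Col1) to 0.48 (without Col43), and was 0.61 after quantile normalization, 0.56 without the # form and 0.063 within it. All 8 colon tumour arrays lie within the range of the 17 small intestinal tumour arrays, 0.84 to 2.78. Their normal counterparts were the large intestine at 5.89 and the duodenum and jejunum at 1.70.

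Jejunal tumours (1.97 ± 0.57, SD, n = 5) nonetheless ranked above duodenal tumours (1.04 ± 0.14, SD, n = 5), with no overlap of the source means. In the limma fit the duodenal minus jejunal difference was -0.84 ± 0.32 and did not pass over all probes (adjusted p = 0.97), where 0.0118% of probes were called. The exact two-sided permutation test of this gene alone gave p = 0.00794, or 0.0397 after adjustment over 5 tests. Unlike the limma fit, it left out the title form, and the highest jejunal sources, Jej3 (2.78) and Jej1 (2.31), lack the # form. It also treated sources with the same number in their names as unrelated. Among the # arrays, 4 numbers are each shared by 2 tumour names. Jej48 was 0.79 above Duo48, Jej59 was 0.42 above Duo59, Col43 was 0.33 above Duo43 and Col72 was 0.64 above Duo72. In 4 of 4 the tumour from further down the gut was higher. The numbers 1 and 2, on the other arrays, are shared too, by Duo1 (1.2), Jej1 (2.31) and Col1 (2.59) and by Jej2 (1.38) and Col2 (1.89). The labels do not say that a number is an animal.

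Among the 3 signalling genes 0 were called in colon tumours against large intestine, with a median difference of 0.01 against -0.04 over all probes. Slc9a3r1 differed by -0.79 ± 0.46 (adjusted p = 0.33), Slc12a2 by 0.57 ± 0.35 (adjusted p = 0.38) and Pdzk1 by 0.014 ± 0.21 (adjusted p = 0.98). In small intestine tumours 1 fell, Pdzk1 (-0.95 ± 0.17, adjusted p = 0.0048), which did not pass without the duodenum (-0.91, adjusted p = 0.061) or proximal jejunum (-0.80, adjusted p = 0.087). Slc9a3r1 differed there by -0.82 ± 0.38 (adjusted p = 0.24) and, without Jej1, by -1.08 (adjusted p = 0.028). Slc12a2 differed by 0.22 ± 0.29 (adjusted p = 0.74). Of all probes 5.26% were called in colon tumours and 3.67% in small intestine tumours.

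Colonocyte genes were lower in colon tumours together with Guca2a, in a comparison with 5.26% of all probes called. Of 5 measured, 4 fell (median -2.64), namely Car4 (-3.05 ± 0.50, adjusted p = 0.00098, and -2.0 after quantile normalization), Car1 (-2.68 ± 0.47, adjusted p = 0.0017), Car2 (-2.64 ± 0.44, adjusted p = 0.0011) and the water channel Aqp8 (-2.04 ± 0.33, adjusted p = 0.00098). None of the 5 passed in small intestine tumours. Of the 6 intestinal transcription factors 1 fell in colon tumours, the gut identity factor Cdx2 (-1.75 ± 0.32, adjusted p = 0.002), while Cdx1 differed by -0.75 ± 0.29 (adjusted p = 0.15) and, without Col2, by -1.06 (adjusted p = 0.048). Goblet cell genes gave 0 of 6 and epithelial genes 0 of 4.

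Of 8 measured Wnt target genes, which rise when the Wnt pathway is active in crypts and intestinal tumours, 3 rose in colon tumours (median 1.22) and 0 fell. These were Sox4 (2.15 ± 0.39, adjusted p = 0.0019), Myc (1.41 ± 0.26, adjusted p = 0.0023) and Lef1 (1.21 ± 0.21, adjusted p = 0.0013). After quantile normalization 6 of the 8 were called, while calls over all 8494 tested probes also rose, from 447 (5.26%) to 1164. Enterocyte genes fell in small intestine tumours, 5 of 10 (1 of 10 after quantile normalization), beside 3.67% of all probes called. Among them was the brush border peptidase Dpp4 (-1.77 ± 0.27, adjusted p = 0.003), in the same tumours in which Guca2a was not called. Dpp4 did not pass without the # form (-1.56, adjusted p = 0.10).

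Of the 3 smooth muscle genes 2 fell in colon tumours (beside 5.26% of all probes called), in the same direction as Guca2a. Their mean was -0.11 to 0.50 in the 4 tumours against 1.18 to 1.78 in normal large intestine. Cnn1 fell by 2.23 (SE 0.30, adjusted p = 0.00015). Smtn differed by -1.26 ± 0.31 (adjusted p = 0.02), a call lost without Col1, Col2, cecum or distal colon (-1.34 to -1.09, adjusted p = 0.057 to 0.10). The mean of the epithelial genes was 0.91 to 2.37 in the tumours and 2.15 to 2.73 in the normal segments. The part of lost muscle wall or of fewer epithelial cells in the Guca2a difference was not tested.

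The term that separates the segments was also called for 1 of 3 smooth muscle genes and 1 of 5 colonocyte genes, beside 0.789% of all probes. Cnn1 gave -1.74 ± 0.38 (adjusted p = 0.032), a call lost without Col1, Col43, Duo72, cecum, distal colon, duodenum or proximal jejunum (-1.86 to -1.41, adjusted p = 0.051 to 0.12). Of the 5 colonocyte genes 1 passed, Car1 (-2.95 ± 0.60, adjusted p = 0.023). The Car1 call was lost without Col2 (-2.88, adjusted p = 0.052), cecum (-2.51, adjusted p = 0.10), duodenum (-2.90, adjusted p = 0.067) or proximal jejunum (-3.02, adjusted p = 0.074).

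In the order of all 26 gut sources by mean, cecum, distal colon and proximal colon were followed by the 3 ileal sources, P14 and P1 small intestine, and then tumours mixed with proximal jejunum and E16.5, down to duodenum. Of 25 neighbouring pairs in that order, 17 had overlapping arrays. The widest steps without overlap lay between P1 small intestine and Jej3 (1.11) and between ileum and P14 (0.79). The median SD of sources with 2 arrays was 0.26 in the gut.

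Outside the gut Guca2a was low. The 62 other source means ran from -2.36 to 0.57 (median -0.60), and each of the 26 gut sources lay above all of them. Of single arrays, 48 of 49 gut arrays exceeded every other array, and 2 other arrays, of pancreatic islets (0.57) and folic acid injured kidney (0.61), reached the lowest duodenal one. After each array was centred on its median, 25 of 26 gut sources stayed above the others, and the duodenum (0.56) fell just below islets (0.58). The normal adult gut (3.93 ± 2.20, SD, n = 7) exceeded other adult organs (-0.69 ± 0.77, SD, n = 30) by 4.61 ± 0.46 (adjusted p = 7.2e-10). In that comparison 18.3% of probes were called, and the median of all probes was itself shifted by 0.16. With array medians centred or quantile normalization the split of all calls moved from 1485 higher and 93 lower to 816 and 352 or to 934 and 748.

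Among organ systems, lung gave source means of -0.16 to 0.38 (n = 8), kidney -0.31 to 0.32 (n = 4), and both nasal epithelia 0.24 and 0.32. Adult, juvenile, sham-operated and regenerating liver lay at the low end, -2.24 to -1.62, whereas fetal liver of embryonic day 14 read 0.06. Heart split into atrium, ventricle and embryonic heart at 0.10 to 0.32 and the 2 sources named CtrlMek and HDmekt at -2.36 and -2.22. Nervous tissue ran from -1.89 to 0.17 (n = 10), immune tissue from -1.73 to -0.24 (n = 6) and hair and skin from -1.95 to -0.65 (n = 4). These low values moved with the array medians, with r = 0.64 (Spearman's rho 0.61) over the 62 sources, which share each array's scale. Titles without the # form hold the letters AC or AF. Outside the gut, Guca2a had a median of -0.90 on the 65 AC arrays and -0.21 on the 57 AF arrays. The part of array scaling or of the title form in the order of these sources was not tested.

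**Figure D3:**
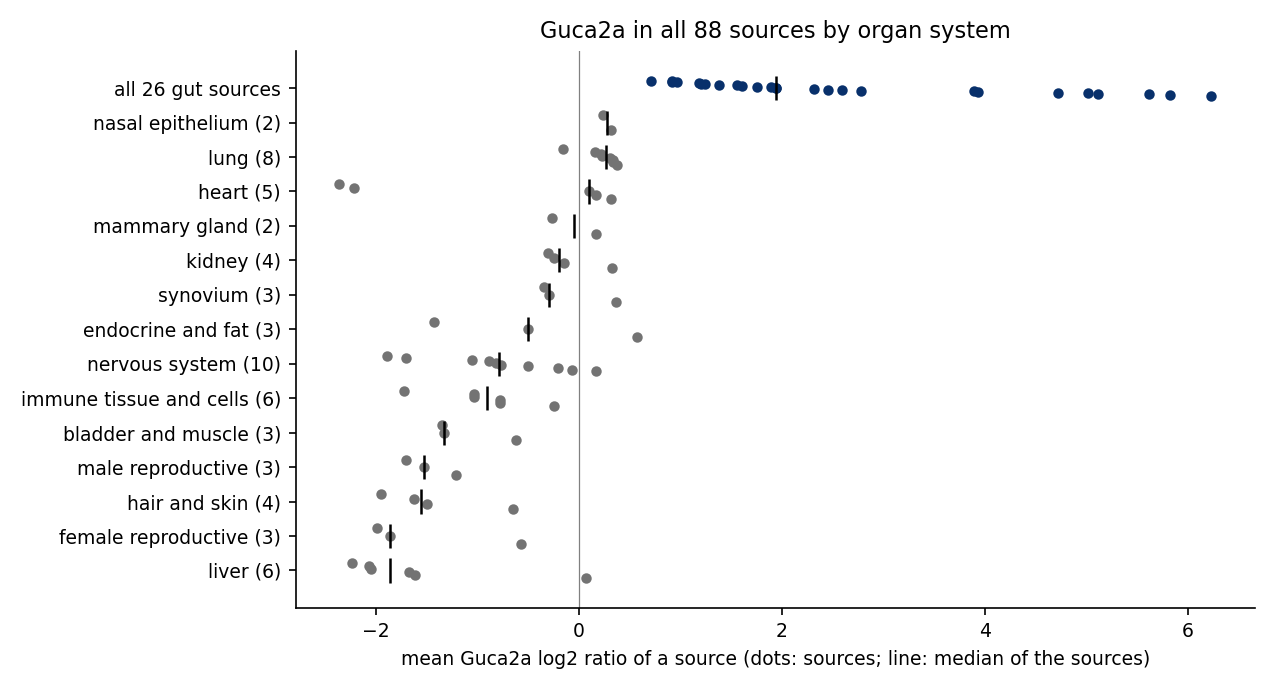
Mean Guca2a log2 ratio (horizontal axis) of each of the 88 sources, 1 dot per source, grouped by organ system (vertical axis, with the number of sources) and ordered by the median, drawn as a line. The 26 gut sources reach from 0.70 to 6.23, and the highest other source is pancreatic islets at 0.57.

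Listed intestinal transcription factors were high in the same comparison with other organs. In it 18.3% of all probes were called, 1485 higher and 93 lower. All 6 intestinal transcription factors were higher in normal gut (4 after either rescaling), among them Cdx2 (2.23 ± 0.18, adjusted p = 6.7e-12) and Cdx1 (1.91 ± 0.19, adjusted p = 1.2e-09). The 3 signalling genes were also higher, Slc9a3r1 by 2.92 ± 0.34 (adjusted p = 1.9e-08), Slc12a2 by 0.63 ± 0.13 (adjusted p = 0.00053) and Pdzk1 by 0.81 ± 0.23 (adjusted p = 0.0096). Pdzk1 did not pass with array medians centred (0.61, adjusted p = 0.093), after quantile normalization (0.49, adjusted p = 0.12), without ileum (0.62, adjusted p = 0.069) or without proximal jejunum (0.67, adjusted p = 0.053).

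The genes whose pattern was most like that of Guca2a were ranked by Pearson's r between source means. Over all 88 sources and 5702 genes (median r 0.20), the 10 highest were Degs2, a sphingolipid hydroxylase (0.89), Fbxw4 (0.87), the goblet cell trefoil peptide Tff3 (0.87), Sdcbp2 (0.87), Tspan8 (0.86), Eps8l3 (0.85), Abhd11os (0.85), Tm4sf20 (0.85), the tight junction gene Cldn7 (0.85) and Cdx2 (0.84). These values rest on the gap between gut and other organs, which the sources share. Of these genes only Cdx2 has a test of that gap above, as a listed transcription factor. Its rank here and that test rest on the same gap. No such test is given for the others.

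Within the 26 gut sources and 5634 genes (median r 0.04), the 10 highest were Lhfpl2 (0.89), Cnn1 (0.85), Adk (0.84), Cdx1 (0.82), Chmp1a (0.81), Lclat1 (0.80), Chmp2b (0.80), Pfdn5 (0.79), Slc25a20 (0.79) and Mfsd6 (0.78). Only Cdx1 of these is a gut transcription factor, and Cnn1 belongs to smooth muscle. Without the 3 large intestinal sources r was 0.84 for Lhfpl2, 0.75 for Cnn1, 0.71 for Adk and 0.73 for Cdx1. As a description of the gene chosen for this likeness, Lhfpl2 read 0.80 to 1.31 in large intestine, 1.13 in ileum, -0.23 in duodenum and -0.65 to 0.26 in colon tumours. Adk, adenosine kinase, read 1.65 to 2.07 in large intestine, 1.03 in ileum, 0.24 in duodenum and -0.12 to 0.28 in colon tumours. It departed from Guca2a at E16.5, where it read 1.63.

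**Figure D4:**
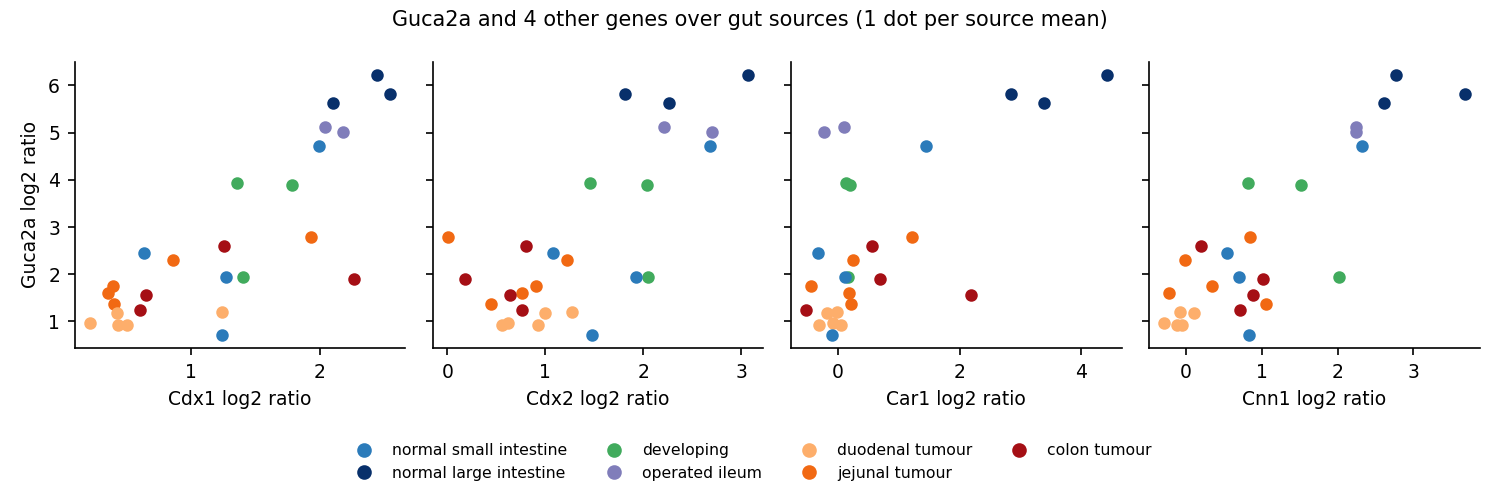
Mean Guca2a log2 ratio (vertical axis) against the log2 ratio of Cdx1, Cdx2, Car1 and Cnn1 (horizontal axes), 1 dot per gut source, coloured by kind of source. Cdx1 and Cnn1 (r = 0.82 and 0.85) are among the genes ranked as most like Guca2a over these same sources. Their likeness to Guca2a here follows from that ranking and is not a separate result. Car1 is highest in the 3 large intestinal sources (2.84 to 4.41). It reads 1.45 in unoperated ileum and lies between -0.22 and 0.20 in operated ileum and developing gut.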

How the data were processed

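Values were used as the authors deposited them: log2 ratios of tissue against universal mouse reference RNA, 1 value per probe and array, with the scale and direction read as described. How background, dyes and scaling were handled is not given in the sources used here. Of 8734 probes, 99.8% had a median within 0.001 of 0 over the arrays. Platform annotation, updated through RefSeq identifiers, gave 1 symbol for 7540 probes, several for 14 and none for 1180.

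Single sources were compared in limma 3.58.1 (R 4.3.3) over all 171 arrays with 1 mean per source. Intestinal classes were compared over 1 mean per source and a covariate for the # form of titles. Probes with values on at least 80% of units were tested, and calls need an adjusted p under 0.05. Permutation tests were exact, over source means, without the title form. Where 1 array or source stood alone, the spread of the rest was taken for it. The steps were tested on simulated data with the spread between arrays of a source. These data held no variation between sources of a class, on which the class comparisons rest.

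Gene, lists, comparisons and markers were chosen with earlier results of these data known, and the organ markers for the direction after the values were seen. The named genes are Guca2a, the measured signalling genes, the 10 most like it over all and over gut sources, and up to 3 changed members of other lists, except that members whose calls hold over single sources were preferred and Aqp8, Cdx1 and Cdx2 were added after their values were seen. Tables and plots used Python 3.11.15, pandas 2.3.3, numpy 2.4.6, scipy 1.17.1 and matplotlib 3.10.9.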

Additional observations from a re-analysis of the deposited data

Results flagged for a closer look

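The tumour difference of Guca2a differed between the large and the small intestine by -3.82 ± 0.48 (adjusted p = 0.00049 in limma). The interaction term itself was tested, and both component differences stand in the report (-3.96 and -0.14). Dixon's test on the source means of 6 sets of normal segments and tumours found no source far from the others.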

How the results depend on the processing

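Of 18 Guca2a comparisons, 8 were called, and their alternatives kept direction and call in all but 1 case. That case was the difference between the tumour effects of large and small intestine without the # title form (-4.01, adjusted p = 0.15). The other 10 stayed uncalled in all 134 alternatives, of which 9 changed sign. Quantile normalization gave -0.24 for sham against unoperated ileum and 0.11 for small intestine tumours against upper small intestine, which was also 0.36 without the # form. Leaving out single arrays or sources moved distal against proximal colon between -0.26 and 0.68, P14 against P1 between -0.14 and 0.23, resection against sham between -0.23 and 0.43, and small intestine tumours between -0.66 and 0.50. Of other genes, Pdzk1 in colon tumours was -0.028 after quantile normalization, -0.32 without the covariate, -0.11 without the # form and from -0.059 to 0.099 without single sources. Slc9a3r1 from E16.5 to P1 was -0.50 after quantile normalization, and Slc12a2 from duodenum to ileum ran from -0.37 to 0.19 without single arrays. The cause of these changes was not tested. Without the # form, which leaves 2 colon tumours, Car2, Car4, Aqp8, Cdx2, Smtn, Myc and Lef1 lost their calls in colon tumours. Quantile normalization levels the top ranks that Guca2a holds in large intestine, and there colon tumours differed by -3.04. Fitting only the arrays compared ended the ileum calls of Pdzk1, Slc9a3r1 and Cdx2. Quantile normalization moved the called probes from 819 to 1231 (large against small intestine), 447 to 1164 (colon tumours), 119 higher and 193 lower to 110 and 62 (small intestine tumours), 206 to 372 (colon against small intestine tumours), 67 to 220 (difference of tumour effects), 253 to 65 (sham against unoperated ileum), 80 higher and 4 lower to 106 and 68 (distal against proximal colon) and 14 to 0 (resection against sham, with 233 probes at an unadjusted p under 0.05 in limma). Centring gave 47 for distal against proximal colon and 70 for proximal colon against cecum. No paired analysis was possible because the labels give arrays no replicate numbers, so tumours could not be matched to normal tissue. Among tumours, those whose names carry 1 number were treated as a random block, which ended no Guca2a call. A further Guca2a probe was not tried, since the annotation gives 1.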
